A study of Mus musculus with 12 samples.

Results

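The Nr4a family comprises 3 genes, Nr4a1 (also called Nur77), Nr4a2 (Nurr1) and Nr4a3 (Nor1), and all 3 were read in every library of the deposited table of 55487 features. They were taken by symbol. The family was chosen by the values of Nr4a1, which was known to be highest in the reporter-negative stimulated cells, so that peak is given as a description and is not tested. The samples were mouse natural killer (NK) cells, innate lymphocytes that kill target cells and secrete interferon gamma. All 3 groups of 4 samples came from the strain B6.129S4-Ifngtm3.1Lky/J with the genotype mut/mut, in which a yellow fluorescent protein (YFP) reporter is tied to the interferon gamma gene, and all sample titles carry the term HD IL-15. One group was unstimulated, and the others were treated for 6 hours with an antibody to the activating receptor NK1.1 and were reporter-negative (YFP-) or reporter-positive (YFP+). Ages of the mice are not in the labels, and no group without the reporter allele was analysed here.

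Nr4a proteins are orphan nuclear receptors: their ligand-binding domains hold a filled pocket, so their activity is set largely by how much protein is made rather than by a hormone. They are immediate early genes, transcribed within minutes to hours of a signal such as calcium entry or cyclic AMP, and their products bind DNA as monomers, as dimers, or, for Nr4a1 and Nr4a2, with retinoid X receptors. In T lymphocytes, Nr4a1 reports antigen receptor signalling and the family is known for restraining effector cytokines and for a part in exhaustion and tolerance.

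On GRCm38, the build named in the submitters' processing notes, GENCODE M21 places Nr4a1 (ENSMUSG00000023034) at chr15:101254269-101274795 on the plus strand. Nr4a2 (ENSMUSG00000026826) lies at chr2:57106830-57124003 on the minus strand and Nr4a3 (ENSMUSG00000028341) at chr4:48045153-48086447 on the plus strand. Each is protein coding and overlaps 0 other annotated genes, so reads could not be shared with an overlapping neighbour. The stretches upstream of the RefSeq starts are shown because a core site of the cyclic AMP response element (CRE), which CREB-family factors bind, recurs in all 3. They are RefSeq sequences on GRCm38.p6, written 5′ to 3′ on the strand of the gene, and capitals mark the CRE core site TGACG or its reverse complement CGTCA. The Nr4a1 stretch is chr15:101266596-101266845 on the plus strand, in an intron of the longest-reaching transcript and just before a start used by shorter ones. The Nr4a2 stretch is chr2:57124004-57124253 on the minus strand and the Nr4a3 stretch chr4:48045055-48045152 on the plus strand, both outside the annotated genes.
Nr4a1: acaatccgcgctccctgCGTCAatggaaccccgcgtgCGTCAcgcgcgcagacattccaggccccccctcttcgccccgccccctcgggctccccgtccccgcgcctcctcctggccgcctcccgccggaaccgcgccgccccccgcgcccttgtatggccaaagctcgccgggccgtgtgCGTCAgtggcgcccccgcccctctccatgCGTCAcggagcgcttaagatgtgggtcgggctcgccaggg
Nr4a2: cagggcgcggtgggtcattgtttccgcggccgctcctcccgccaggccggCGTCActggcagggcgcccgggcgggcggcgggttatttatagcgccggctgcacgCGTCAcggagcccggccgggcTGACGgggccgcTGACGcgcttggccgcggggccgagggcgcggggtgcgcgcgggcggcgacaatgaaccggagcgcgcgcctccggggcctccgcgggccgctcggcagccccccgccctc
Nr4a3: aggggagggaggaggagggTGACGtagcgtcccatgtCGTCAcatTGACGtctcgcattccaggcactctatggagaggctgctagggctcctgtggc
Motifs were counted on both strands in RefSeq windows of 300 bases, 250 of them before the start. Each of the 3 Nr4a windows held 4 CRE core sites, the fourth of Nr4a3 lying outside the stretch shown. Of 32851 windows of this length, 20.8% held at least 1 core site and 0.231% held at least 4. The core site contains a CG pair and the windows are rich in G and C, with 72.3% for Nr4a1, 81.7% for Nr4a2 and 64.7% for Nr4a3 against a median of 52.7% over all windows. The stretches of Nr4a1 and Nr4a2 also share an unbroken run of 12 letters around one core site, gCGTCAcggagc, which 5 of all windows held. No Nr4a window held the full CRE TGACGTCA (1.79% of all windows did), the AP-1 site TGANTCA (7.81%) or the Nr4a monomer site AAAGGTCA (1.51%). The NFAT core GGAAA occurred 1 time in Nr4a2 only, against 61.3% of windows with at least 1, and the EGR site GCGGGGGCG 1 time in Nr4a1 only, against 2.91%. The letters TATAAA occurred 1 time in Nr4a2 only, on the opposite strand to the gene, against 13.6% of windows. Binding was not measured.

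Libraries held 32.1 to 54.2 M reads (M for mega), so a level of 3 reads stood at 0.0553 to 0.0933 CPM, the reads per M reads of the library, and the Nr4a genes had 214 to 9316 reads in each library. Pearson correlations of log2 CPM between libraries of a group, across genes, ran from 0.974 to 0.985 without stimulation, then 0.980 to 0.984 among YFP- and 0.938 to 0.982 among YFP+ libraries. Features annotated as ribosomal RNA (rRNA) or known to collect its reads took 12.0 to 15.2%, 7.15 to 17.8% and 5.13 to 15.5% of reads in those groups, and m3 was highest in both stimulated groups. The reporter gene Ifng followed the labels, at 3.67 to 4.19 CPM without stimulation, 36.6 to 54.5 CPM in YFP- and 303.8 to 343.4 CPM in YFP+ libraries. All 9 NK markers examined were read in every library, and they went in differing directions. Klrb1c, which encodes NK1.1, went from 290.2 to 327.2 CPM without stimulation to 57.6 to 86.6 CPM in YFP- and 3.70 to 8.97 CPM in YFP+ libraries. The NK factor Eomes went from 101.5 to 114.8 CPM to 57.5 to 84.3 and 38.3 to 43.0 CPM. Gzma and Klrd1 were also lower in both stimulated groups, and Ncr1 in YFP+ cells. For Gzmb, Klrk1 and Tbx21 every stimulated library lay above the unstimulated range, while Prf1 overlapped it. Tbx21 stood at 29.0 to 38.5, 66.8 to 93.3 and 62.8 to 115.5 CPM in the 3 groups. Of the T cell markers, Cd3e, part of the T cell receptor complex, reached at most 1.49 CPM and Cd4, Cd8a and Cd8b1 at most 0.193 CPM, while Cd3g, Cd3d, Trac and Cd6 gave most of a sum over 9 markers of 53.1 to 113.4, 74.9 to 107.3 and 72.2 to 125.0 CPM in the 3 groups. Within that sum Trac was higher in both stimulated groups, as Nr4a2 and Nr4a3 were, at 6.83 to 8.47, 27.6 to 41.9 and 40.4 to 54.5 CPM, as was Cd6 at 0.301 to 0.973, 6.80 to 18.7 and 8.20 to 36.1 CPM, while Cd3g ran from 30.9 to 79.4, from 24.4 to 41.7 and from 11.7 to 31.9 CPM and Cd3d from 14.2 to 25.9, from 12.8 to 20.6 and from 7.25 to 13.8 CPM. Of the B cell markers, Cd79b reached 3.33, 2.33 and 1.25 CPM in the 3 groups and Cd79a 0.771, 0.486 and 0.404 CPM, Ms4a1 and Pax5 stayed at or under 0.0617 CPM, and the summed granulocyte markers at or under 0.658 CPM. Myeloid markers, nearly all Cd68, summed to 53.0 to 60.2 CPM without stimulation, 27.4 to 44.4 CPM in YFP- and 14.7 to 24.0 CPM in YFP+ libraries, with Adgre1 at most 0.0308 CPM. Their part in the results was not tested. In such bulk samples, fewer cells making a transcript and less of it per cell cannot be told apart.

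Nr4a1 was high in YFP- cells and low in the other 2 groups. In the libraries labelled f2, m2, m3 and m4, in that order throughout, it stood at 13.9, 9.47, 6.20 and 6.60 CPM in unstimulated cells. In YFP- cells it stood at 206.9, 185.1, 112.8 and 190.0 CPM. In YFP+ cells it stood at 27.5, 28.0, 7.02 and 10.8 CPM. Every YFP- library lay above every library of the other groups and m3 was the lowest of them. On the log2 CPM scale the YFP- mean, 7.40 ± 0.40 (SD, n = 4), exceeded the unstimulated mean of 3.10 ± 0.54 by 4.30, a 19.7-fold difference. The YFP+ mean, 3.96 ± 0.998, lay 3.44 below the YFP- mean on that scale, a 10.9-fold difference. Between libraries with the same label the fall from YFP- to YFP+ was -2.91, -2.72, -4.00 and -4.14 in log2. These are the values that chose the family, so they carry no test.

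The YFP+ libraries were split in their Nr4a1 level, with f2 and m2 above the whole unstimulated range and m3 and m4 within it. The choice of the family does not fix the contrast of YFP+ with unstimulated cells, although it required Nr4a1 to be lower in both than in YFP- cells. The difference of YFP+ from unstimulated cells was 0.86 (log2, SE 0.41) with a 95% interval of -0.03 to 1.75. Although it was positive in 4 of 4 labels, it did not pass the threshold of 0.05 (limma, Benjamini-Hochberg adjusted p = 0.087). The call depended on scaling, on single libraries and on whether the replicate label entered the fit. With the label as a block, the difference was 0.86 with an adjusted p of 0.0078 (limma). Under trimmed-mean scaling over the filtered genes, a gene set chosen after seeing the data, it was 0.94 (limma adjusted p = 0.042). With factors from all features it was 0.99 with an adjusted p of 0.052 (limma). Without YFP+ m3 it was 1.24 with an adjusted p of 0.0074, and without unstimulated f2 it was 1.09 with an adjusted p of 0.046 (limma). The YFP+ libraries f2 and m2 held 48.9 and 54.2 M reads, against 36.2 and 32.1 M in m3 and m4. Their shares of reads on rRNA features were 5.13 and 6.71%, against 15.5 and 7.62% in m3 and m4. Whether depth or the rRNA share had a part in the split was not tested.

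Nr4a2, which is best known from dopamine neurons and has the same DNA-binding domain fold as Nr4a1, rose in both stimulated groups. It stood at 13.7, 13.5, 10.6 and 8.48 CPM in unstimulated cells. In YFP- cells the levels were 109.2, 188.7, 83.9 and 90.8 CPM. In YFP+ cells they were 119.7, 154.7, 59.0 and 83.1 CPM. Every stimulated library was above every unstimulated one, the YFP- and YFP+ ranges overlapped, and m2 was the highest library in both. The rise was 3.30 (log2, SE 0.30, limma adjusted p = 2e-06) in YFP- and 3.10 (SE 0.30, adjusted p = 1.2e-06) in YFP+ cells, or 9.85-fold and 8.59-fold. YFP+ differed from YFP- cells by -0.20 (SE 0.30, limma adjusted p = 0.68), with a 95% interval of -0.85 to 0.46, which runs from 0.553 to 1.37 as a ratio.

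Nr4a3, whose product does not pair with retinoid X receptors, rose by a similar amount in both stimulated groups and varied least among libraries. In unstimulated cells it stood at 8.94, 7.95, 9.11 and 10.2 CPM. In YFP- cells it stood at 59.2, 53.9, 50.6 and 55.0 CPM. In YFP+ cells it stood at 44.3, 48.4, 62.6 and 58.2 CPM. No stimulated library came near the unstimulated range, and the narrow YFP- range lay inside the YFP+ range. The rise was 2.60 (log2, SE 0.14, limma adjusted p = 2e-08) in YFP- and 2.55 (SE 0.14, adjusted p = 6.4e-09) in YFP+ cells, or 6.05-fold and 5.85-fold. YFP+ differed from YFP- cells by -0.05 (limma adjusted p = 0.83, 95% interval -0.34 to 0.25), lower in 2 labels and higher in 2. Its SD within a group was 0.15, 0.09 and 0.23 in log2 CPM for unstimulated, YFP- and YFP+ cells, against 0.33, 0.53 and 0.61 for Nr4a2.

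**Figure D1:**
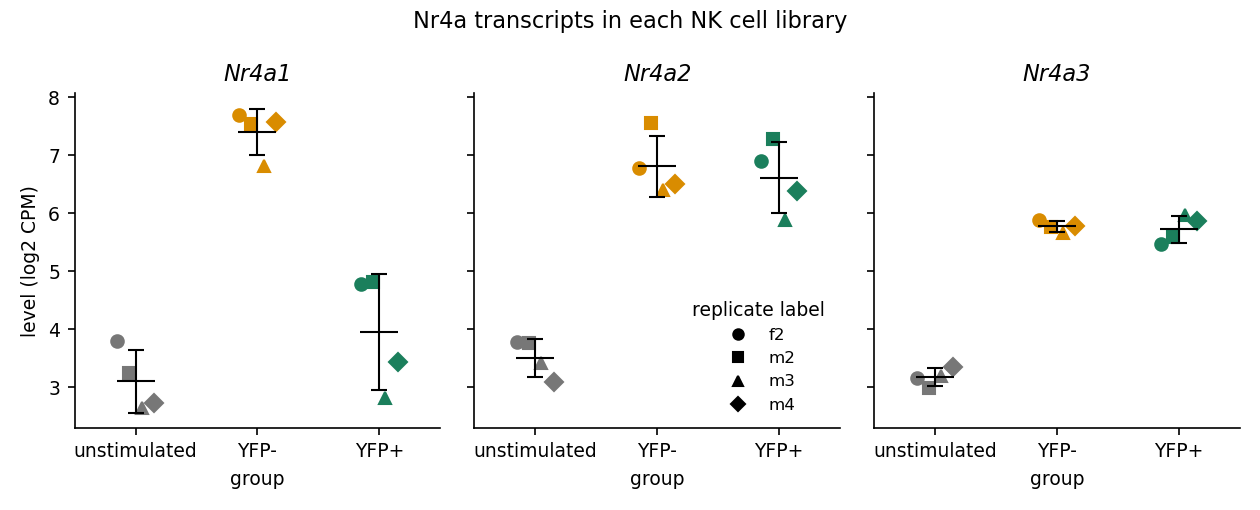
Level of each Nr4a gene (log2 CPM, vertical axis) by group (horizontal axis), with 1 point per library shaped by replicate label, and the mean ± SD (n = 4) in black. Nr4a1 averages 7.40 in YFP- and 3.96 in YFP+ cells, while Nr4a2 averages 6.81 and 6.61 and Nr4a3 5.77 and 5.72.

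Read against all 12364 genes tested, the rises of Nr4a2 and Nr4a3 were among the larger ones. In YFP- against unstimulated cells, 30.2% of genes were called higher and 20.9% lower, and both testable members were called higher. Their log2 differences exceeded those of 98.5% and 97.7% of genes. In YFP+ against unstimulated cells, 27.5% of genes were called higher and 33.3% lower, and 2 of the 3 members were called higher, with differences above those of 98.2% (Nr4a2) and 97.3% (Nr4a3) of genes. In YFP+ against YFP- cells, 3.28% of genes were called higher and 18.5% lower, and of the 2 members tested 0 were called in either direction (limma; their unadjusted limma p-values were above 0.05 as well). Of the genes called there, 15.1% were higher in YFP+ cells, against 41.0% under trimmed-mean scaling and 50.2% with each library centred on its median, so the direction of small differences there depends on scaling. The median gene differed by -0.19 in log2 in that last comparison, and by 0.14 and -0.03 in the 2 before it, so Nr4a2 at -0.20 sat at the median gene. The sign of the Nr4a3 value there turned to 0.14 under trimmed-mean scaling, while Nr4a2 stood at -0.01 under that scaling and at 0.064 after median centring. Genes called higher in YFP- cells than in both other groups, the pattern Nr4a1 was chosen for, made up 2.05% of genes (254), and neither Nr4a2 nor Nr4a3 was among them. This share, and the counts of genes with this pattern in the lists below, were taken under the deposited scaling only.

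Levels were compared between the 3 genes per length, as CPM per kilobase (kb) of the longest annotated transcript, which spans 2553 bases in Nr4a1, 3568 in Nr4a2 and 5720 in Nr4a3. The transcripts in use were not measured. In unstimulated cells Nr4a1 at 3.54 ± 1.39 and Nr4a2 at 3.24 ± 0.699 CPM per kb (SD, n = 4) overlapped, and Nr4a3 at 1.58 ± 0.164 lay below the range of both. In YFP- cells the order was Nr4a1 at 68.0 ± 16.3, Nr4a2 at 33.1 ± 13.5 and Nr4a3 at 9.56 ± 0.621 CPM per kb, where the ranges of Nr4a1 and Nr4a2 overlapped (44.2 to 81.0 and 23.5 to 52.9) and that of Nr4a3 lay apart. In YFP+ cells Nr4a2 led at 29.2 ± 11.8 CPM per kb, and Nr4a3 at 9.33 ± 1.48 and Nr4a1 at 7.18 ± 4.31 overlapped.

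Summed over the 3 genes, the family stood at 8.37 ± 1.90 CPM per kb in unstimulated, 110.7 in YFP- and 45.7 ± 14.6 in YFP+ cells (mean ± SD, n = 4). The 3 ranges of that sum, 6.75 to 10.8, 76.6 to 134.8 and 30.2 to 62.8, did not overlap. Nr4a1 supplied 41.2 ± 6.65% of the sum in unstimulated, 61.5 ± 6.83% in YFP- and 14.6 ± 5.39% in YFP+ cells. Nr4a2 supplied 38.9 ± 4.22%, 29.6 ± 7.18% and 62.5 ± 6.00% in the same order, and Nr4a3 19.8 ± 5.78%, 8.96 ± 1.91% and 22.9 ± 10.8%. Per length, the leading paralog thus changed from Nr4a1 in YFP- to Nr4a2 in YFP+ libraries in 4 of 4 labels. In CPM, without division by length, Nr4a2 led in YFP- m2 (188.7 against 185.1 for Nr4a1). Nr4a3 led on that scale in YFP+ m3 (62.6 against 59.0 for Nr4a2). Since Nr4a1 chose the family, sums and shares that hold it are descriptions.

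**Figure D2:**
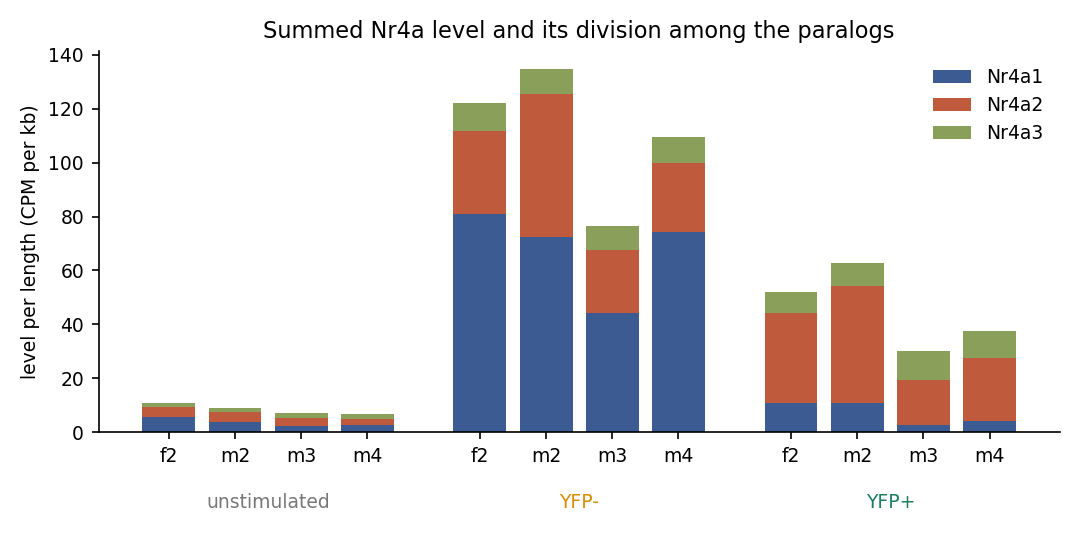
Summed level of the 3 Nr4a genes in each library (CPM per kb of longest transcript, vertical axis), stacked by gene, with libraries named by replicate label under each group. The sum runs from 76.6 to 134.8 in YFP- and from 30.2 to 62.8 in YFP+ libraries, and the Nr4a1 segment is the one that shrinks most between them.

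Differences between paralogs were also taken within each library, where the library total and any scaling factor cancel. Nr4a1 minus Nr4a2 averaged -0.41 ± 0.33 in unstimulated, 0.60 ± 0.50 in YFP- and -2.65 ± 0.44 in YFP+ libraries (log2 CPM, SD, n = 4). The YFP+ libraries, at -3.07 to -2.12, lay below all others. Nr4a1 minus Nr4a3 averaged -0.07 ± 0.62, 1.63 ± 0.32 and -1.76 ± 1.22, and again the YFP+ range of -3.16 to -0.69 lay below those of both other groups.

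Both differences were thus lower in YFP+ than in unstimulated cells, by -2.24 for Nr4a1 minus Nr4a2 and by -1.69 for Nr4a1 minus Nr4a3. The peak that chose the family does not fix this contrast, but it requires Nr4a1 to lie below its YFP- level in both groups. Neither difference is therefore fully free of that choice. The 2-sided exact permutation test gave p = 0.029 for each, the smallest that 70 splits of 4 against 4 allow. Adjusted over the 5 tests of this kind the p was 0.0714 for each (exact permutation test), which does not pass the threshold. Nr4a2 minus Nr4a3 changed by 0.70 from unstimulated to YFP- (exact permutation p = 0.0857, adjusted 0.143), by 0.55 to YFP+ (p = 0.314, adjusted 0.393) and by -0.15 from YFP- to YFP+ (p = 0.714, adjusted 0.714), with overlapping groups each time. A difference between the responses of Nr4a2 and Nr4a3 was therefore not past the threshold. With a pseudocount of 1 CPM the 2 differences with Nr4a1, and that of Nr4a2 minus Nr4a3 in YFP- cells, came past it (exact permutation test, adjusted p = 0.0476). From YFP- to YFP+ cells, Nr4a1 fell by 3.25 relative to Nr4a2 on the log2 scale, and by a like amount relative to Nr4a3 (group means above), without overlap and without a test, since this contrast chose the family.

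**Figure D3:**
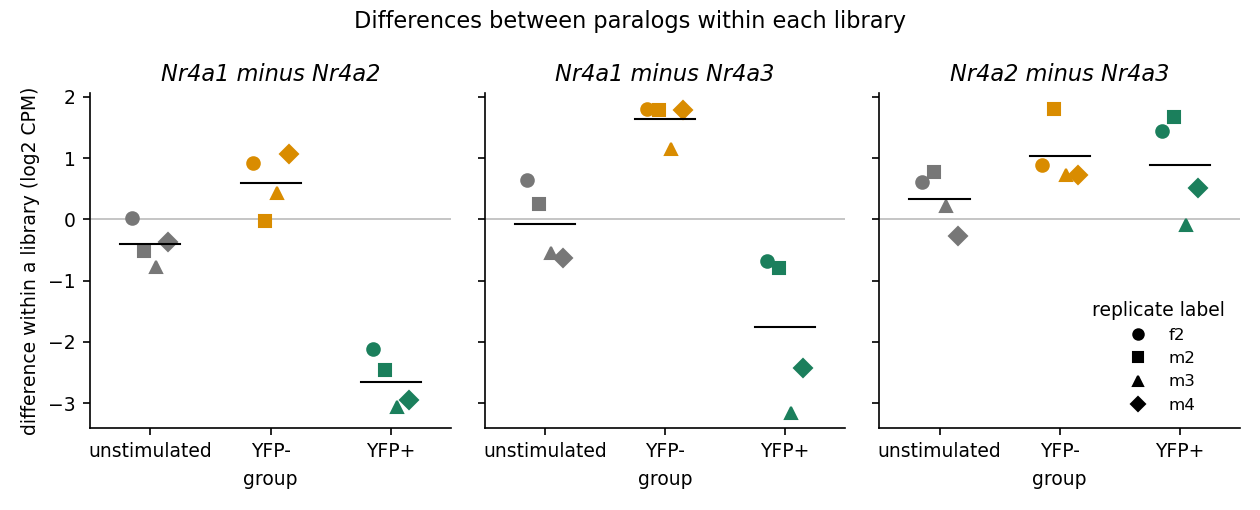
Difference in log2 CPM between 2 Nr4a genes within a library (vertical axis) by group (horizontal axis), with points shaped by replicate label and a line at the group mean. The YFP+ means are -2.65 and -1.76 in the panels with Nr4a1, below every library of the other groups, while the groups overlap for Nr4a2 minus Nr4a3.

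Across the 12 libraries, Pearson r of log2 CPM was 0.933 between Nr4a2 and Nr4a3, 0.702 between Nr4a1 and Nr4a2 and 0.606 between Nr4a1 and Nr4a3. These values describe the 3 groups as much as the libraries within them, since all 12 share the group structure. Among 8063 protein-coding genes with a symbol and a mean log2 CPM of at least 2, the 6 most like Nr4a1 were Nfkbie (r = 0.984), Icam1, Eif3h, Tnfrsf18, Fam129a and Slc2a6 (r = 0.953). Nfkbie encodes an inhibitor of NF-kappaB, Icam1 an adhesion molecule and Tnfrsf18 the costimulatory receptor GITR. Icam1 stood at 4.62 ± 0.48, 8.04 ± 0.34 and 5.62 ± 1.30 log2 CPM in unstimulated, YFP- and YFP+ cells (SD, n = 4), and Nfkbie at 3.51 ± 0.23, 6.13 ± 0.39 and 4.15 ± 0.92. Both had their widest spread in YFP+ cells, as Nr4a1 did.

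The genes most like Nr4a2 were Mtf2 (r = 0.997), Lactb, Ccnq, Rgs16, Noa1 and Rbm34 (r = 0.991). Of these Rgs16, a regulator of G protein signalling, had the largest difference, from 4.05 ± 0.57 in unstimulated to 9.15 ± 0.36 in YFP- and 9.04 ± 1.03 log2 CPM in YFP+ cells. The genes most like Nr4a3 were Ccl1 (r = 0.992), Pdgfa, Srgn, Bcl2a1d, Rbpj and Zeb2 (r = 0.989). Ccl1, a chemokine, stood at 4.96 ± 0.42, 12.72 ± 0.26 and 13.40 ± 0.15 log2 CPM in the 3 groups, and Srgn, the core protein of granule proteoglycan, at 9.26 ± 0.09, 11.28 ± 0.11 and 11.32 ± 0.05. None of the 18 genes was shared between members. Bcl2a1d belongs to a family of near-identical copies, so its reads may be divided among them.

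The counts of the lists that follow are read against the shares of all genes called higher and lower: 30.2% and 20.9% in YFP- against unstimulated, 27.5% and 33.3% in YFP+ against unstimulated, and 3.28% and 18.5% in YFP+ against YFP- cells. The 3 genes were first set beside other immediate early genes, those that a stimulus switches on without new protein. Of 40 listed, 39 passed the filter. In YFP- against unstimulated cells 24 were higher and 6 lower, with a median of 1.26 in log2 against 0.14 over all genes. The largest rises were those of Atf3 (6.18, limma adjusted p = 2.2e-08), Arc (6.12) and Egr2 (4.59), and the largest falls those of Ier3 (-1.45), Klf2 (-1.24) and Maff (-0.91). In YFP+ against unstimulated cells 21 were higher and 13 lower, median 1.09 against -0.03, led by the same 3 rises (Atf3 6.66, Arc 5.97, Egr2 4.53). The largest falls there were in Klf2 (-2.63), Egr3 (-2.59) and Zfp36 (-2.19), which encodes an mRNA-destabilizing protein.

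Between the stimulated groups, 2 of the 39 immediate early genes were higher in YFP+ cells, Plk3 (1.41) and Dusp2 (0.62), and 17 were lower, median -0.46 against -0.19. Under trimmed-mean scaling the counts were 5 and 14. The largest falls were in Egr3 (-3.32, limma adjusted p = 3.5e-07), Klf10 (-2.34) and Fos (-1.77), a subunit of AP-1. Egr2, a zinc finger factor of the same family as Egr3, differed by -0.06 (limma adjusted p = 0.90). In all, 8 of the 39 were called higher in YFP- than in both other groups, against the 2.05% of all genes above, among them Egr3, Gadd45b and Nfkbia.

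The regulators that act upstream of Nr4a transcription are calcium channels and sensors, the phosphatase calcineurin, the NFAT, MEF2 and CREB factors and the histone deacetylases that hold MEF2 silent. Of 31 listed, 29 passed the filter. In YFP- against unstimulated cells 9 were higher and 12 lower (median 0.07 against 0.14), where the share higher was near the 30.2% of all genes and the share lower above their 20.9%, led by Camk4 (1.68), the calcium channel Orai1 (1.24) and Crem (0.87) on one side and by the calcineurin subunit Ppp3cc (-1.32), Hdac5 (-1.24) and Nfatc2 (-1.18) on the other. In YFP+ against unstimulated cells 7 were higher and 14 lower (median -0.22), with Hdac5 (-3.37), Nfatc2 (-1.88) and Mef2c (-1.82) lowest. From YFP- to YFP+ cells 0 rose and 10 fell (median -0.38), or 1 and 8 under trimmed-mean scaling, most of all Hdac5 (-2.13, limma adjusted p = 6.1e-05), Mef2c (-2.01) and Ppp3ca (-1.14). Of the 29, 1 was called higher in YFP- cells than in both other groups, near the 2.05% of all genes with that pattern. It was the calcium-dependent kinase Camk4, at 2.43 ± 0.20, 4.11 ± 0.22 and 3.06 ± 0.53 log2 CPM (SD, n = 4).

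Of 18 dimer partners and coregulators, 17 passed the filter. In YFP- against unstimulated cells 3 were higher and 3 lower, against 30.2% and 20.9% of all genes, or 2 and 7 under trimmed-mean scaling. The retinoid X receptor Rxra, a partner of Nr4a1 and Nr4a2, rose by 0.74 (limma adjusted p = 0.023) in YFP- cells, and its difference in YFP+ cells was 0.55 (adjusted p = 0.069). Rxrb fell by 0.96 in YFP+ against unstimulated cells (limma adjusted p = 0.00021) and Rxrg did not pass the filter. In that comparison 2 of the 17 rose and 10 fell, with the coactivator Ncoa1 (-1.22) the largest fall; the histone deacetylase Hdac2 was among those that rose (0.91). In YFP+ against YFP- cells 1 rose and 6 fell, or 3 rose and 3 fell under trimmed-mean scaling.

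Of 20 genes linked to Nr4a receptors in T lymphocytes, 17 passed the filter, and Foxp3, Il10 and Tox2 did not. In YFP- against unstimulated cells 9 rose and 3 fell (median 0.82 against 0.14), where 30.2% of all genes rose and 20.9% fell, with the largest rises in Il2ra (5.32), the inhibitory receptor Pdcd1 (4.33) and Irf4 (3.90) and the largest falls in Ctla4 (-2.42), Entpd1 (-1.63) and Cblb (-0.34). In YFP+ against unstimulated cells 6 rose and 5 fell (median 0.04), Pdcd1 (6.02), Il2ra (5.01) and Irf4 (4.44) leading again, with Ctla4 (-4.10) and Ikzf2 (-3.17) lowest. Pdcd1 had only 0 to 8 reads in unstimulated libraries (0 to 0.210 CPM), so the size of its rise depends on the prior. Between stimulated groups 0 were higher in YFP+ cells and 6 were lower (median -0.38), or 2 and 5 under trimmed-mean scaling. The largest falls were in Ikzf2 (-4.06, limma adjusted p = 2.9e-05), a zinc finger factor, Ctla4 (-1.68) and Tox (-1.17). In YFP+ cells Ikzf2 stood at -1.28 ± 1.09 and Ctla4 at -0.77 ± 0.50 log2 CPM (SD, n = 4). The sizes of their falls to YFP+ cells thus rest on low levels. The 4 called higher in YFP- cells than in both other groups, against 2.05% of all genes, were Tox, Tigit, Tnfrsf18 and the proapoptotic Bcl2l11. Tox, an exhaustion-linked factor, stood at 1.86 ± 0.21, 2.75 ± 0.55 and 1.57 ± 0.32 log2 CPM (SD, n = 4), and Bcl2l11 at 5.51 ± 0.17, 7.43 ± 0.19 and 6.39 ± 0.16. Pdcd1 and Havcr2, also linked to exhaustion, were instead at their highest mean in YFP+ cells, but their differences from YFP- cells, 1.69 and 0.86, did not pass (limma adjusted p = 0.13 and 0.11). Other genes of this list, among them Lag3, Ctla4 and Entpd1, had their highest mean in unstimulated cells. Lag3 stood at 5.44, 5.12 and 4.41 log2 CPM in the 3 groups.

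Outside the Nr4a family, 17 of 46 nuclear receptors passed the filter. In YFP- against unstimulated cells 5 rose and 5 fell (median -0.11 against 0.14), against 30.2% and 20.9% of all genes, the rises near that share, or 5 and 8 under trimmed-mean scaling. None of the mean rises reached that of Nr4a3: the largest were those of Thrb (1.39), Rora (1.11) and Nr6a1 (1.09), all from low levels except Rora. In YFP+ against unstimulated cells 1 rose and 10 fell (median -0.90), or 4 and 10 under trimmed-mean scaling. Thra, a thyroid hormone receptor, had the largest fall (-5.05, limma adjusted p = 0.00024), from 53 to 62 reads a library without stimulation to 0 to 11 in YFP+ cells, so its size depends on the prior. It overlaps Nr1d1 on the other strand, so reads of both may not be separable. The glucocorticoid receptor Nr3c1 fell by 1.15 (limma adjusted p = 6.6e-06).

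From YFP- to YFP+ cells 0 of the 17 rose and 6 fell (median -0.36), or 1 and 5 under trimmed-mean scaling. Rora, itself an orphan receptor that guides innate lymphoid cells, was the 1 receptor among the 17 called higher in YFP- cells than in both other groups, against 2.05% of all genes. It stood at 3.36 ± 0.50, 4.46 ± 0.44 and 1.49 ± 0.66 log2 CPM (SD, n = 4) in unstimulated, YFP- and YFP+ cells, falling by 2.98 between the stimulated groups (limma adjusted p = 5.3e-05), to below its unstimulated level. The Nr4a1 mean in YFP+ cells lay above its unstimulated mean.

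**Figure D4:**
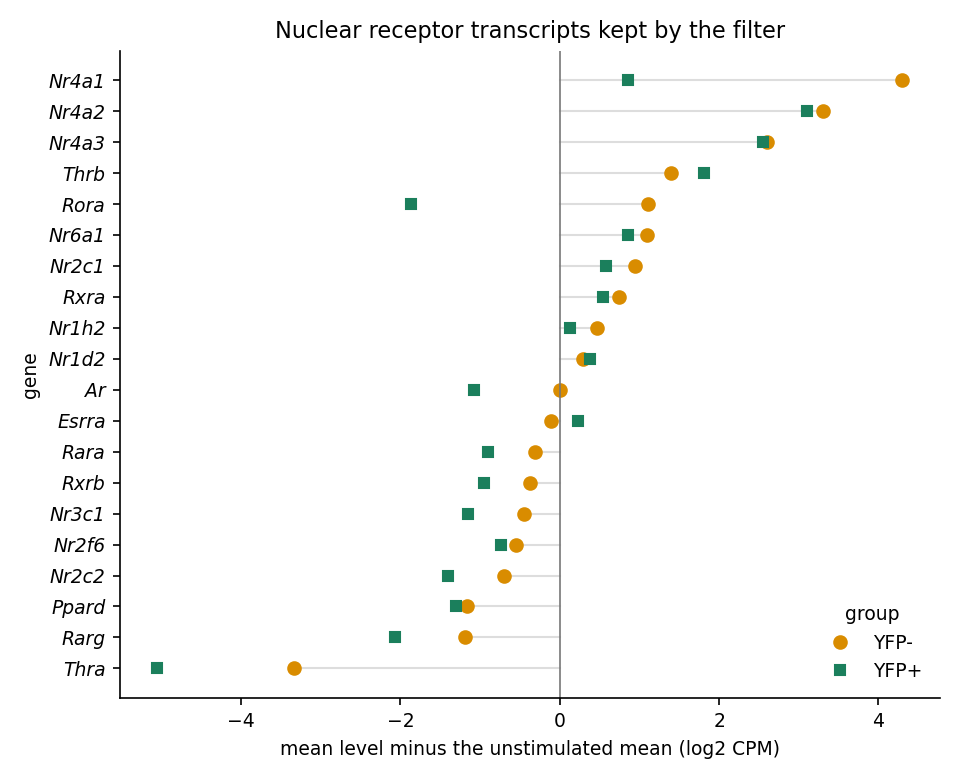
Mean level of each nuclear receptor gene kept by the filter, minus its unstimulated mean (log2 CPM, horizontal axis), with genes on the vertical axis in order of the YFP- value, circles for YFP- and squares for YFP+ cells; both groups share the unstimulated samples. The 3 Nr4a genes have the highest YFP- values (4.30, 3.30 and 2.60), and Nr4a1 and Rora show the widest gaps between circle and square among genes with positive YFP- values.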

How the data were processed

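RNA-seq was available for 12 NK cell samples, 4 per group. Per the submitters' processing notes, bcl2fastq, STAR 2.7.9a, Subread and featureCounts 2.0.3 were used with GRCm38, in roles those notes do not give. Per the labels' protocols, a SMARTer Ultra Low kit turned 10 ng of RNA into cDNA, a method that does not mark strand. The authors deposited moderated log2 CPM values, a log2 of reads plus a prior over the library total, with Ensembl identifiers. Of 55774 lines, 287 repeats were dropped, leaving 55487 features, of which 55227 identifiers were in GENCODE M21. There were 0 per-sample columns of no sample. Read counts followed from the deposited log2 values, whole within 0.01 for 100% of values. CPM was computed from them and counts reads rather than molecules, since no molecular identifiers are named.

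The 12364 genes that exceeded a log2 CPM of 0 in 4 or more samples were fitted in limma 3.58.1 (R 4.3.3) with lmFit, 1 coefficient per group over all 12 samples, contrasts and eBayes with trend, and called at a Benjamini-Hochberg adjusted p under 0.05. Differences between paralogs within a library were tested with 2-sided exact permutation tests, adjusted over 5. Where nothing in the labels says that samples of a group came from separate mice, p-values measure only the spread between these samples. The 3 members, the gene lists and the tests were chosen with earlier results of these data known. Genes named are the members, the 6 most correlated with each, up to 3 called genes with the largest rise and fall per list and comparison, the nuclear receptors and Ifng; others were named after their values were seen, and a few genes that this rule covers are not reported here. The search for correlated genes also left out further clone-style symbols and genes that are not protein coding. Alternatives were the replicate label as a block, only the 8 samples compared, other filters (log2 CPM above 2, or none), quantile normalization, a pseudocount of 1 CPM, median centring, trimmed-mean scaling, library totals without rRNA features, leaving out each library, no trend and a threshold of 0.01. Totals also without Lars2, and trimmed-mean factors from all features with reads, were added after seeing the data, as was the use of the filtered genes for the first trimmed-mean factors. The fit was also run on simulated reads with the same dispersion for every gene and no effect of replicate label. That run does not show how the fit performs on these data. Other steps ran on scipy 1.17.1, pandas 2.3.3 and numpy 2.4.6, with figures by matplotlib 3.10.9, in Python 3.11.15.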

Additional observations from a re-analysis of the deposited data

Results flagged for a closer look

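A library stood apart from the other 3 of its group in 2 of 24 sets of 4 values examined, where chance alone gives about 1.2. The measure is the gap to the nearest other library divided by the whole range, compared with Dixon's critical value for 4 samples. In YFP- cells, Nr4a2 minus Nr4a3 was 1.81 in m2 and 0.72 to 0.88 in the other 3 libraries (log2 CPM), a ratio of 0.854. Also in YFP- cells, Nr4a1 minus Nr4a3 was 1.16 in m3 and 1.78 to 1.80 in the other 3, a ratio of 0.962. The library m3 had the highest share of reads on rRNA features in its group, 17.8%. Whether RNA quality had a part was not tested.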

How the results depend on the processing

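The rises of Nr4a2 and Nr4a3 over unstimulated cells kept their direction and stayed past the threshold under all 21 alternatives each, at 3.05 to 3.44 and 2.88 to 3.34 (log2) for Nr4a2 in YFP- and YFP+ and 2.46 to 2.66 and 2.40 to 2.68 for Nr4a3. The untested Nr4a1 differences ran from 4.15 to 4.53 and from -3.73 to -3.06 over 15 alternatives each. Nr4a1 in YFP+ against unstimulated cells, 0.86 with a limma adjusted p of 0.087, passed with the replicate block (0.86, adjusted p = 0.0078), quantile normalization (0.99, adjusted p = 0.024), median centring (0.98, adjusted p = 0.027) and trimmed-mean scaling over the filtered genes (0.94, adjusted p = 0.042) but not with trimmed-mean factors from all features (0.99, adjusted p = 0.052), and ranged from 0.58 to 1.24 when 1 library was left out. Between stimulated groups the Nr4a2 value turned to 0.064 under median centring and ranged from -0.42 to 0.054 with 1 library left out. There the Nr4a3 value turned to 0.21 on centring, 0.11 on quantile normalization, and 0.14 or, with factors from all features, 0.11 on trimmed-mean scaling, and ranged from -0.13 to 0.038 with 1 library left out. Neither passed in any alternative (limma adjusted p from 0.34 to 1). Genes called between stimulated groups numbered 2691, against 1583 without a filter and 1466 at an adjusted p under 0.01. With a pseudocount of 1 CPM, 3 paralog differences came past the threshold at an adjusted exact permutation p of 0.0476: Nr4a2 minus Nr4a3 in YFP- against unstimulated (0.72), and Nr4a1 minus Nr4a2 (-2.20) and Nr4a1 minus Nr4a3 (-1.63) in YFP+ against unstimulated. Nr4a2 minus Nr4a3 between stimulated groups ranged from -0.41 to 0.17 with 1 library left out; such tests cannot go below p = 0.0571 (exact, 3 against 4). Samples sharing a replicate label correlated in their deviations by 0.03, 0.14 and 0.24 on average in YFP- against unstimulated, YFP+ against unstimulated and YFP+ against YFP-, and 1, 2 and 3 of 4 labels matched best with their own. In no comparison did all 4 labels exceed a correlation of 0.1, so samples were not treated as pairs. Each label occurs in every group, but the labels do not say what samples with the same label share. The larger values between the stimulated groups are a hint from the data that such samples are related. The block changed no other call of a member, and its exact sign-flip test cannot go below p = 0.125. The cause of these changes was not tested.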
